A study of Mus musculus with 8 samples.

Results

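The genes described are 8 chemokine ligands and receptors that draw T cells and natural killer cells into tissue: Cxcl9, Cxcl10, Cxcl11 and their receptor Cxcr3, Cxcl16 and its receptor Cxcr6, Ccl5, and Xcl1. They were chosen by symbol from the 22036 annotated genes of the deposited table, and all 8 were among the 14907 genes that passed the filter on low counts. The samples are subcutaneous tumors grown in female C57BL/6J mice, of an age not given in the sources used here, from MC38-OVA cells, which are colon adenocarcinoma cells of the mouse that carry ovalbumin. In 4 tumors the injected cells carried shNT, the control hairpin, and in the other 4 they carried shXBP1, against the unfolded protein response factor XBP1. Hosts in both groups were of the same strain, and whether the cells were 1 clone or a pool, and whether each tumor came from its own mouse, is not given either. The p-values therefore speak only of the spread among these 8 samples, which may be technical. The study asks how XBP1 inside cancer cells acts on myeloid cells of the tumor.

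Chemokines are small secreted proteins that bind G protein-coupled receptors on leukocytes and set the direction of their migration. CXCL9, CXCL10 and CXCL11 are made by macrophages, dendritic cells, stroma and tumor cells under interferon-gamma, and all bind CXCR3 on activated T cells and natural killer cells. CXCL16 is made as a membrane protein that proteases can shed, and binds CXCR6 on effector and tissue-resident T cells. CCL5 comes from T cells, natural killer cells and myeloid cells, while XCL1 comes from activated CD8 T cells and natural killer cells and attracts the XCR1-bearing dendritic cells that cross-present antigen.

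All 8 genes were higher in shXBP1 tumors, from 1.88-fold for Cxcl16 to 6.50-fold for Cxcr3. Every shXBP1 tumor lay above every shNT tumor for each of the 8. Among all genes tested, 16.9% were called higher by edgeR's quasi-likelihood test at a Benjamini-Hochberg adjusted p under 0.05, 30.0% were called in either direction, and 16.6% were higher with no overlap between the groups. Of the 8 genes, 7 were called higher and at least 2-fold up, a criterion that 7.63% of all genes met. The median log2 fold change (shXBP1 minus shNT) was 1.88 over the 8 genes and -0.01 over all genes tested. Because the libraries are of whole tumors, more cells of a type and more RNA per cell cannot be told apart.

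**Figure D1:**
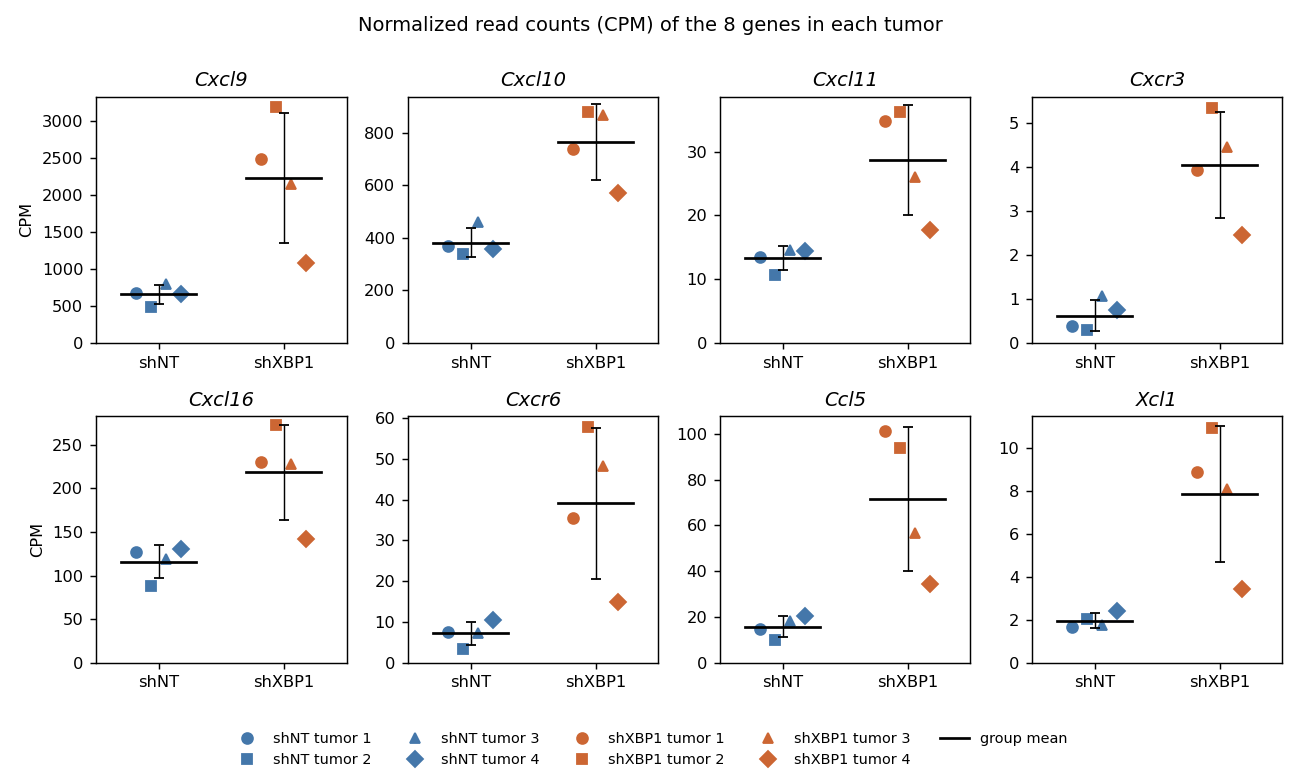
Normalized read counts (CPM, linear axis from 0) of each gene in each tumor, with shNT in blue and shXBP1 in orange. Bars are group means with the SD over 4 tumors. Every shXBP1 tumor lies above every shNT tumor in all 8 panels, and shXBP1 tumor 4 (diamond) is the lowest of its group in each.

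Library totals lay between 29070605 and 36012997 counts, and CPM are counts per 1000000 after scaling. Xbp1, the targeted gene, was lower in the shXBP1 tumors (70.9 ± 9.61 CPM, against 101 ± 5.96 in shNT, SD, n = 4 each, edgeR adjusted p = 0.00255), with no overlap. Markers of colon epithelium were scarce: of 9 fixed markers 5 were below the filter, Cdx2 was at 0 counts in all tumors, and all 9 summed to between 10.0 and 12.3 CPM per shNT tumor and between 14.0 and 16.4 CPM per shXBP1 tumor. Of the 4 measured, 1 rose, and 0 did without shNT tumor 2, 3 or 4 or without shXBP1 tumor 1 or 2.

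Cxcl9 encodes the ligand of CXCR3 that depends most on interferon-gamma. Its normalized counts were 682, 486, 794 and 668 CPM across shNT tumors 1 to 4 and 2491, 3200, 2158 and 1088 CPM across shXBP1 tumors 1 to 4, the order used for each gene. The shXBP1 tumors were spread widely, and the lowest of them was still above the highest shNT tumor. This is a 3.40-fold difference, or 1.76 on the log2 scale (SE 0.31, edgeR adjusted p = 0.00402).

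Cxcl10, which type I interferon and NF-kB also induce, measured 369, 337, 462 and 358 CPM across shNT tumors, and across shXBP1 tumors 737, 880.0, 868 and 570.2 CPM. The groups did not overlap, and both were tighter than for Cxcl9. The fold was 2.0 (log2 fold change 1.0, SE 0.14, edgeR adjusted p = 0.000405).

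Cxcl11 measured 13.5, 10.6, 14.6 and 14.4 CPM across shNT tumors, and across shXBP1 tumors 34.8, 36.2, 26.0 and 17.7 CPM. The shNT tumors were close together, and shXBP1 tumors 3 and 4 lay below tumors 1 and 2. Between groups the log2 fold change came to 1.11 (SE 0.21, edgeR adjusted p = 0.00275). GENCODE M21 annotates Cxcl11 in the C57BL/6 reference as a polymorphic pseudogene, that is, a gene intact in other strains and disrupted in this one. The counts are therefore of a transcript that makes no intact chemokine in this strain.

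The genes for these ligands lie next to each other on the minus strand of GRCm38 chromosome 5: Cxcl9 (ENSMUSG00000029417) from 92321347 to 92328079, Cxcl10 (ENSMUSG00000034855) from 92346638 to 92348889 and Cxcl11 (ENSMUSG00000060183) from 92359544 to 92365485. Art3, on the plus strand, spans Cxcl10 and Cxcl11 and shares exonic bases with Cxcl10. Art3 had 11 to 66 counts per tumor, against 10668 to 30056 for Cxcl10, and its mean was 0.868 ± 0.546 CPM for shNT against 1.32 ± 0.421 CPM for shXBP1 (SD, n = 4 each, edgeR adjusted p = 0.348). Gm2673 and Gm20743, annotated over exons of Cxcl11 and Xcl1 on the other strand, were not analysed here. The 3 annotated neighbours on each side differed in direction. Naaa, an acid amidase gene on the Cxcl9 side, rose 1.43-fold (edgeR adjusted p = 0.00287), while Sdad1, nearest to Cxcl9 and a ribosome assembly gene, was lower, with a log2 fold change of -0.34 (SE 0.09, edgeR adjusted p = 0.0143). Ppef2, Nup54 and Scarb2 did not pass, with log2 fold changes of 0.34, -0.14 and 0.11, and Fam47e was at 0 counts in all tumors.

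RefSeq promoters of GRCm38.p6 were found for 5 of the 8 genes: Cxcl9, Cxcl10, Cxcr3, Cxcr6 and Xcl1. The 250 bases before the start of Cxcl9 (chr5:92328080-92328329, minus strand) and of Cxcl10 (chr5:92348890-92349139, minus strand) are shown because these neighbouring ligand genes, both induced by interferon, had folds of 3.40 and 2.0. Both are written 5′ to 3′ along the gene, with matches to the searched motifs in capitals.
Cxcl9: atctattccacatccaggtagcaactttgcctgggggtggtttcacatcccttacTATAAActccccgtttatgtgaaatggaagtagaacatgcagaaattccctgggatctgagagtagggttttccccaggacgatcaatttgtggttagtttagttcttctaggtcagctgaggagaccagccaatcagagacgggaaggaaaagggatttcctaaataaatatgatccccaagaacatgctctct
Cxcl10: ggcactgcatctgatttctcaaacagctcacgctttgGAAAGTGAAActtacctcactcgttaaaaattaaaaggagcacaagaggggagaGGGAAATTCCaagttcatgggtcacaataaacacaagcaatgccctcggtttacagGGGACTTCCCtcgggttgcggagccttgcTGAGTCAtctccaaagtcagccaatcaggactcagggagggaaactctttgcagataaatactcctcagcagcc
In the Cxcl10 window the capitals mark, in order, an interferon-stimulated response element from -213 to -204, counted in bases from the start, matches to the NF-kB consensus from -159 to -150 and from -103 to -94, and an AP-1 consensus (TGANTCA) from -74 to -68. None of these matches overlaps another. In the Cxcl9 window the single match was to the letters searched as the TATA box (TATAAA), from -195 to -190. The position of a match was not part of the search, so these letters are not shown to act as a TATA box. Elements that differ from the searched letters would not be found. The interferon-gamma activated site (TTCNNNGAA) and the core of the UPR element that XBP1 binds (TGACGTG) had no match in the 5 windows, and those of Cxcr3, Cxcr6 and Xcl1 held no match to any of the 6 motifs. Searched the same way on both strands, 2.98% of 32851 promoter windows held the interferon-stimulated response element, 3.90% the NF-kB consensus, 6.75% the AP-1 consensus, 7.02% the interferon-gamma activated site, 1.65% the UPR element core and 12.4% the TATA box. A match is a description of these letters and not a measured binding site.

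Levels per gene length were read from FPKM, the authors' values scaled to gene length and library size. The deposited FPKM of Cxcl10 was 306 ± 40.9 in shNT and 611 ± 95.3 in shXBP1 tumors, that of Cxcl9 200.3 ± 34.9 and 676 ± 246, and that of Cxcl11 5.48 ± 1.03 and 12.7 ± 4.09 (SD, n = 4 each). Cxcl10 was above Cxcl9 in 4 of 4 shNT tumors, and in the shXBP1 tumors the order was split, with Cxcl9 higher in 2 of 4. Of the summed FPKM of the 3 genes, Cxcl9 made up 40.8, 35.1, 39.2 and 41.0% in the shNT tumors and 55.6, 57.5, 48.2 and 41.7% in the shXBP1 tumors. Cxcl11 made up 0.775 to 1.23% in any tumor.

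**Figure D2:**
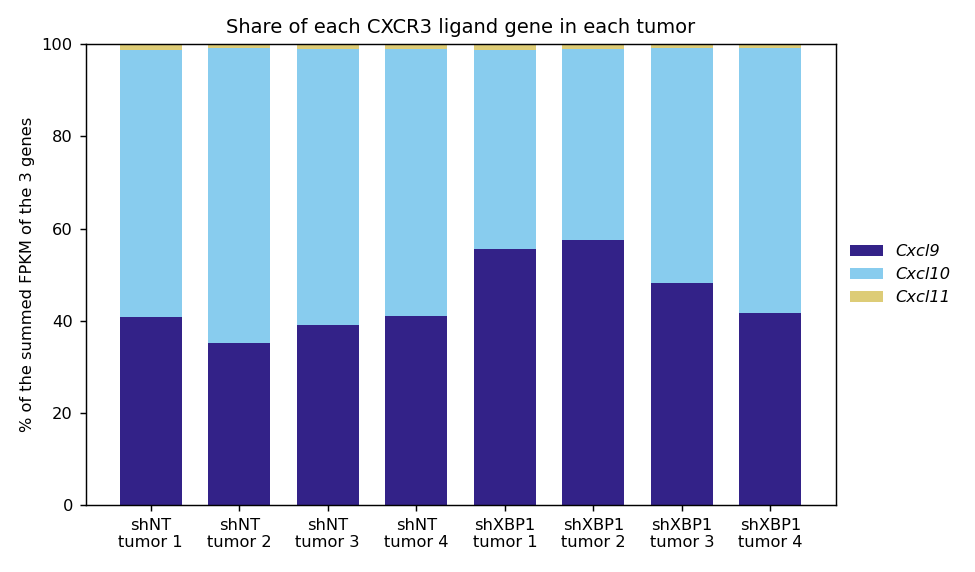
Stacked bars give the percentage that Cxcl9, Cxcl10 and Cxcl11 each make up of their summed deposited FPKM, with 1 bar per tumor. The Cxcl9 share is 35.1 to 41.0% in the shNT tumors and 41.7 to 57.5% in the shXBP1 tumors, and shXBP1 tumor 4 lies close to the shNT tumors.

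Whether Cxcl9 and its neighbours differed in their rise was tested as a ratio within each tumor. The log2 ratio of Cxcl9 to Cxcl10 was 0.89, 0.53, 0.78 and 0.90 in the shNT tumors and 1.76, 1.86, 1.31 and 0.93 in the shXBP1 tumors, a mean difference of 0.69. All shXBP1 tumors were above all shNT tumors, tumor 4 by a narrow margin. The log2 ratio of Cxcl9 to Cxcl11 differed by 0.62, again without overlap. For both, the two-sided exact permutation p was 0.0286, the smallest that 4 against 4 tumors allow, and the adjusted p over the 19 ratios tested was 0.0905, which does not pass. The log2 ratio of Cxcl10 to Cxcl11 differed by -0.07 (exact permutation p = 0.743).

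Cxcr3 (ENSMUSG00000050232, chromosome X, 101731535 to 101734269, minus strand) encodes the receptor shared by these ligands. It measured 0.378, 0.284, 1.07 and 0.748 CPM across shNT tumors, and across shXBP1 tumors 3.92, 5.34, 4.45 and 2.46 CPM. Its FPKM was the lowest of the 8 genes in both groups, with 9 to 166 counts per tumor, and the relative spread of the shNT tumors was wide (59.7% coefficient of variation of FPKM). Cxcr3 had the highest log2 fold change of the 8 genes, 2.70 (SE 0.39, edgeR adjusted p = 0.000409).

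Cxcl16 (ENSMUSG00000018920, chromosome 11, 70453983 to 70459984, minus strand) encodes the membrane-bound ligand. It measured 127, 87.8, 119 and 130.1 CPM across shNT tumors, and across shXBP1 tumors 230.0, 273, 228 and 142 CPM, the narrowest gap between groups of the 8 in relative terms. It rose by 0.91 on the log2 scale (SE 0.19, edgeR adjusted p = 0.00666). Zmynd15, on the opposite strand, shares exonic bases with it, and was called higher as well (16.9 ± 4.18 and 25.1 ± 3.20 CPM, SD, n = 4 each, adjusted p = 0.0219). It had 390 to 891 counts per tumor against 2782 to 8504 for Cxcl16, and without a stated strand setting reads of the shared bases cannot be told apart.

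Cxcr6 (ENSMUSG00000048521, chromosome 9, 123806475 to 123811760, plus strand) encodes the receptor for CXCL16. It measured 7.5, 3.41, 7.38 and 10.4 CPM across shNT tumors, and across shXBP1 tumors 35.4, 57.7, 48.3 and 15.0 CPM. The spread was wide in both groups, with shXBP1 tumor 4 well below tumors 1 to 3. The difference was 5.45-fold, a log2 fold change of 2.45 (SE 0.49, edgeR adjusted p = 0.00891). The gene lies inside Fyco1 on the opposite strand with no shared exon, and Fyco1 was at 33.6 ± 1.20 and 35.2 ± 2.38 CPM (SD, n = 4 each, adjusted p = 0.581).

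Receptor and ligand of the CXCL16 axis were compared within each tumor. The log2 ratio of Cxcl16 to Cxcr6 was 4.07, 4.66, 4.0 and 3.64 in the shNT tumors and 2.70, 2.24, 2.23 and 3.24 in the shXBP1 tumors, a difference of -1.49 and the largest of the 19 ratios. All shXBP1 tumors were below all shNT tumors (exact permutation p = 0.0286, adjusted p = 0.0905, which does not pass).

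Ccl5 (ENSMUSG00000035042, chromosome 11, 83525778 to 83530518, minus strand) encodes an inflammatory chemokine that binds CCR1, among other receptors. It measured 14.6, 9.90, 18.2 and 20.3 CPM across shNT tumors, and across shXBP1 tumors 101, 93.8, 56.6 and 34.4 CPM. Of the 8 genes it alone was highest in shXBP1 tumor 1, where the others were highest in tumor 2. The rise was 4.54-fold, or 2.18 as log2 (SE 0.39, edgeR adjusted p = 0.00518).

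Xcl1 (ENSMUSG00000026573, chromosome 1, 164931644 to 164935527, minus strand) encodes lymphotactin. It measured 1.64, 2.02, 1.77 and 2.40 CPM across shNT tumors, and across shXBP1 tumors 8.86, 10.9, 8.09 and 3.43 CPM. It was the only one of the 8 not lowest in shNT tumor 2. Its rise was 3.98-fold, or 1.99 as log2 (SE 0.31, edgeR adjusted p = 0.000650).

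**Figure D3:**
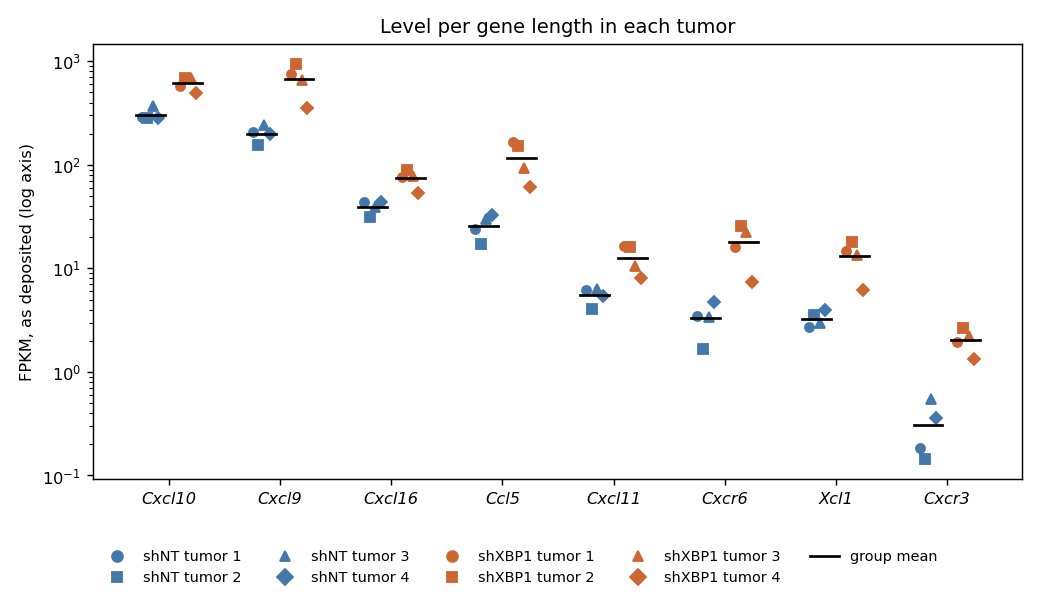
Deposited FPKM (log axis) of each gene in each tumor, ordered by the shNT mean, with group means as bars. Ccl5 and Cxcl16 exchange places between the groups in every tumor. Cxcl9 and Cxcl10 do so by mean only, with Cxcl9 higher in 2 of 4 shXBP1 tumors. By mean Cxcl11 also moves below Cxcr6 and Xcl1, and Cxcr3 is lowest in both groups.

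By FPKM the order in the shNT tumors was Cxcl10, Cxcl9, Cxcl16 (39.4 ± 5.82), Ccl5 (25.9 ± 6.97), Cxcl11, Cxcr6 (3.29 ± 1.26), Xcl1 (3.28 ± 0.555) and Cxcr3 (0.307 ± 0.183), SD, n = 4. The neighbours Cxcl16 and Ccl5, Cxcl11 and Cxcr6, and Cxcr6 and Xcl1 overlapped in range. In the shXBP1 tumors it was Cxcl9, Cxcl10, Ccl5 (117 ± 48.7), Cxcl16 (74.4 ± 15.4), Cxcr6 (17.9 ± 8.08), Xcl1 (13 ± 4.94), Cxcl11 and Cxcr3 (2.04 ± 0.543). There Cxcl9 and Cxcl10, Ccl5 and Cxcl16, Cxcr6 and Xcl1, and Xcl1 and Cxcl11 overlapped. Ccl5 was above Cxcl16 in 4 of 4 shXBP1 tumors and below it in 4 of 4 shNT tumors.

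By CPM, single tumors stood out in the same direction across the genes. shXBP1 tumor 4 was the lowest of its group for 8 of 8 genes, shXBP1 tumor 2 was the highest for 7, and shNT tumor 2 was the lowest of its group for 7. Without shXBP1 tumor 4 all 8 genes were called higher, with log2 fold changes from 1.08 for Cxcl16 to 2.88 for Cxcr3. The authors' deposited table gives log2 fold changes from 0.87 for Cxcl16 to 2.12 for Cxcr3, positive for all 8 and each smaller than the value fitted here.

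Partners of the 8 gene products were read from the same fit: receptors, scavenging receptors and proteases that cut chemokines. Of 12 fixed, 9 were measured, 5 rose, 0 fell and 4 did not pass, with a median log2 fold change of 0.54. For this and the later lists, 16.9% of all genes tested rose and 13.1% fell, with a median of -0.01. Ccr1, a receptor for CCL5, rose 2.10-fold (38.8 ± 6.80 to 81.5 ± 19.3 CPM, SD, n = 4 each, edgeR adjusted p = 0.00133). Xcr1, the receptor for XCL1 on cross-presenting dendritic cells, was at 1.10 ± 0.562 and 2.82 ± 0.945 CPM (log2 fold change 1.34, SE 0.38, edgeR adjusted p = 0.0177), with an overlap between groups.

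Among the proteases, Dpp4, which trims CXCL9, CXCL10 and CXCL11 at the amino end, rose 3.37-fold (edgeR adjusted p = 0.00290) at a low level, with an overlap from shXBP1 tumor 4. Adam17, a sheddase, rose 1.45-fold (84.0 ± 5.82 to 122 ± 14.0 CPM, adjusted p = 0.00130). Adam10, which sheds CXCL16 at rest, was at 159 ± 8.25 and 162 ± 12.3 CPM (log2 fold change 0.02, adjusted p = 0.860, SD, n = 4 each). Mmp9, Ackr3 and Ackr2, also among the partners, did not pass, and Ccr3, Ackr1 and Ackr4 were below the filter.

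**Figure D4:**
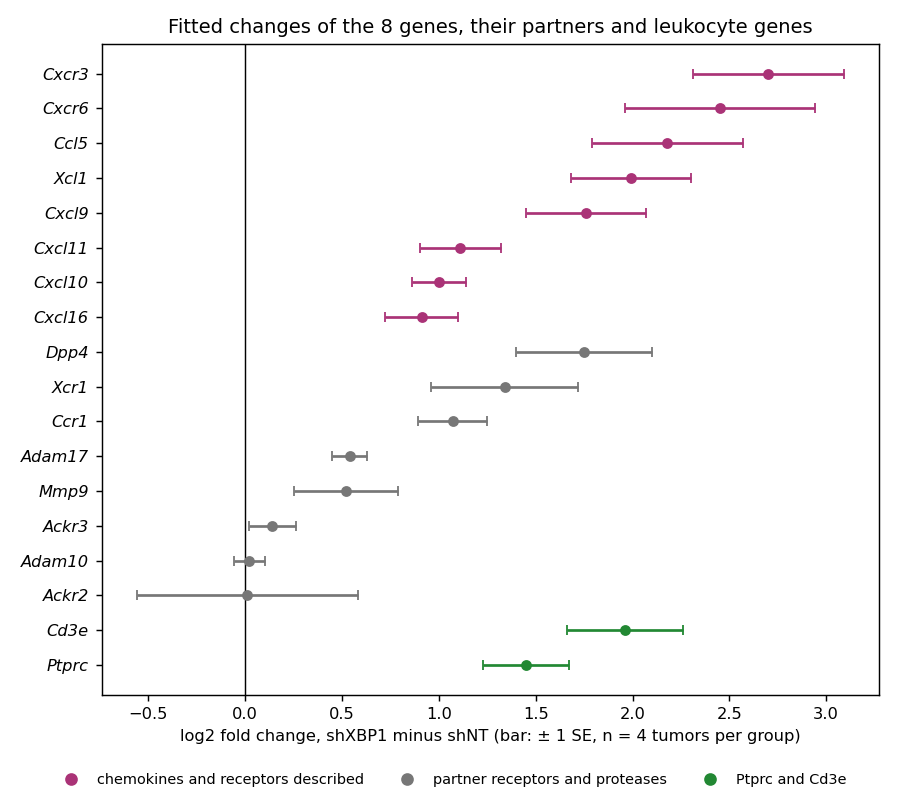
Fitted log2 fold change, shXBP1 minus shNT, with 1 SE on each side, for the 8 genes (purple), partner receptors and proteases (grey), and Ptprc and Cd3e (green). The 8 genes lie between 0.91 and 2.70, and Adam10, Ackr2 and Ackr3 lie near 0.

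Genes of the interferon and TNF pathways, here called interferon inputs, were counted next. The list also holds genes that interferon itself induces and a feedback inhibitor. The part of these genes in the rise of Cxcl9 and Cxcl10 was not tested. Of 17 measured, 13 rose, 0 fell and 4 did not pass, with a median of 0.61. Ifng, the cytokine itself, averaged 4.45 ± 1.30 CPM for shNT and 23.0 ± 9.75 CPM for shXBP1 (SD, n = 4 each), a 5.16-fold rise (edgeR adjusted p = 0.00273). Irf1 and Irf8, transcription factors induced by interferon-gamma, rose 1.81-fold (adjusted p = 0.000159) and 1.91-fold (adjusted p = 0.000411). Socs1, a feedback inhibitor of the pathway, rose 2.67-fold (adjusted p = 0.000232), and Ifnar2, a chain of the type I interferon receptor, 1.57-fold (adjusted p = 0.000287). The log2 ratio of Cxcl9 to Ifng differed by -0.57, with 3 of 4 shXBP1 tumors below all shNT tumors (exact permutation p = 0.0571, adjusted p = 0.0987). Jak1, Jak2, Nfkb1 and Rela did not pass, with log2 fold changes of -0.04, 0.24, 0.17 and -0.14. Ifnb1, interferon beta, was below the filter.

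Of components through which chemokine receptors signal, 21 were measured, 14 rose, 0 fell and 7 did not pass, with a median of 0.72. Among those named after their values were seen, the G protein subunit genes Gnai2, Gnai3, Gnb1 and Gnb2 did not pass, with log2 fold changes of -0.07, -0.09, -0.19 and -0.12. Genes that rose include Dock2, Rac2, Coro1a, Itgal and Itgb2, and also the arrestin genes Arrb1 and Arrb2 and the receptor kinase gene Grk2. Dock8 did not pass (edgeR adjusted p = 0.0549). Of the other chemokine ligand genes 25 of 32 fixed were measured, 16 rose, 0 fell and 9 did not pass (median 1.07). Of the other receptors 14 of 22 were measured, 8 rose, 0 fell and 6 did not pass (median 1.17). Ccl19 and Ccl21a, homeostatic chemokines of T cell zones, and Cxcl13, that of B cell follicles, were below the filter (chosen after their values were seen).

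Marker lists of the cells that could make or bear these molecules were read from the same fit. All 10 measured T cell markers rose, with sums of 38.4 to 76.7 CPM per shNT tumor and 111 to 333 CPM per shXBP1 tumor. Of natural killer cell markers 5 of 6 rose, from 19.3 to 24.7 up to 42.3 to 89.8 CPM. The largest part of the natural killer sums was Klrk1 (means of 10.3 and 39.7 CPM), and Eomes did not pass (edgeR adjusted p = 0.126). Of cross-presenting dendritic cell markers 7 of 8 rose (91.2 to 123 and 157 to 223 CPM). The largest part of these sums was Irf8 (means of 69.5 and 133 CPM), which is also among the interferon inputs. Xcr1 (1.10 and 2.82 CPM) and Clec9a (0.719 and 1.32 CPM) were low, and Clec9a did not pass (edgeR adjusted p = 0.134). The number of these markers that rose was between 2 and 8 when single tumors were left out. It was 2 without shNT tumor 2, 4 without shNT tumor 3 or 4, 3 without shXBP1 tumor 1, and 4 without shXBP1 tumor 2 or 3. Of macrophage markers 9 of 10 rose (749 to 1092 and 1277 to 2437 CPM). Endothelial markers rose in 3 of 6 (43.4 to 52.3 and 88.2 to 101 CPM), fibroblast markers in 5 of 7 (1875 to 3159 and 6050 to 8149 CPM). The largest part of the fibroblast sums was Col3a1 (means of 1580 and 5165 CPM). Col1a1 and Col1a2 did not pass, with log2 fold changes of 0.05 and -0.26. B cell markers summed to 2.08 to 2.90 and 4.29 to 6.69 CPM, with 3 of 6 below the filter. Of the other 3, 2 rose. The number was 1 without either of shNT tumors 2 and 4, 1 without either of shXBP1 tumors 2 and 3, and 0 without shXBP1 tumor 1. The part of these cell types in the rise of the 8 genes was not tested.

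Ptprc, the CD45 gene of all leukocytes, stood at 59.4, 42.6, 66.5 and 56.4 CPM across shNT tumors, against 156, 193, 171 and 94.8 CPM across shXBP1 tumors. Its lowest tumors were the same as for most of the 8 genes. When Ptprc, as log2 CPM, entered the edgeR model as a covariate, 0 of the 8 genes passed, and 0 had an unadjusted p under 0.05. In that fit 0.899% of all genes were called higher and 1.61% in either direction. Over all genes the SE was 2.26 times as large at the median. Among the 8 genes it was smaller for Cxcl9 (0.23, against 0.31 without the covariate) and Cxcr6 (0.44 against 0.49). For the rest it was larger, from 0.20 against 0.19 for Cxcl16 to 0.59 against 0.31 for Xcl1. Ptprc itself did not overlap between the groups. The log2 fold changes then lay between -0.37 for Cxcr6 (SE 0.44, adjusted p = 0.737) and 0.83 for Cxcr3 (SE 0.64, adjusted p = 0.569).

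Each gene was also set against Ptprc within each tumor. The log2 ratio of Cxcl16 to Ptprc was 1.10, 1.04, 0.84 and 1.21 in the shNT tumors and 0.56, 0.50, 0.42 and 0.59 in the shXBP1 tumors, a difference of -0.53. That of Cxcl10 to Ptprc differed by -0.43. That of Cxcr3 to Ptprc was -7.08, -6.95, -5.87 and -6.12 in the shNT tumors and -5.30, -5.16, -5.24 and -5.23 in the shXBP1 tumors, a difference of 1.27. In these 3 the groups did not overlap (exact permutation p = 0.0286, adjusted p = 0.0905 for each). Cxcl11 differed by -0.36, Cxcr6 by 0.96, Ccl5 by 0.68, Xcl1 by 0.44 and Cxcl9 by 0.26, with overlap in each (adjusted p from 0.0987 to 0.271).

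**Figure D5:**
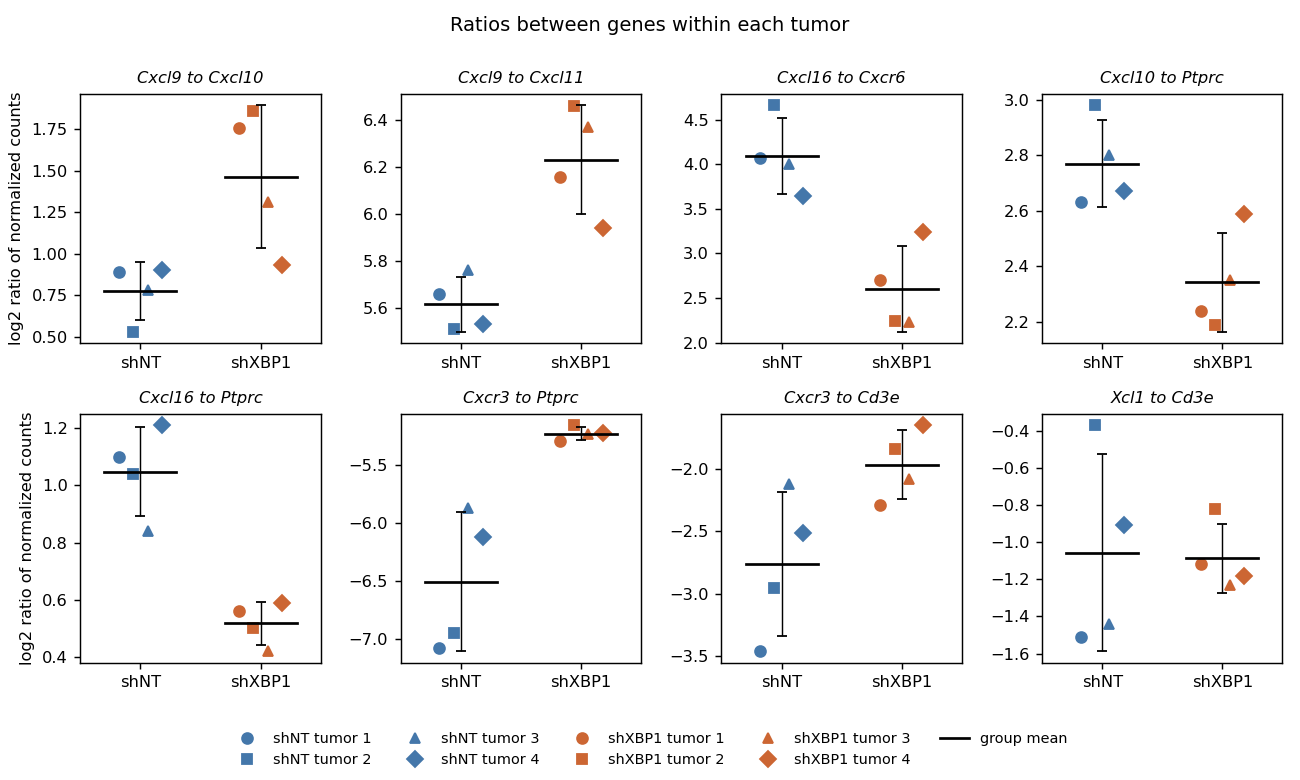
Log2 ratio of normalized counts of 2 genes within each tumor (axes do not start at 0), with group means and SD over 4 tumors. The ratios of Cxcl9 to Cxcl10 and to Cxcl11 and of Cxcr3 to Ptprc are higher in every shXBP1 tumor, and those of Cxcl16 to Cxcr6 and of Cxcl10 and Cxcl16 to Ptprc are lower. The ratios of Cxcr3 and Xcl1 to Cd3e overlap.

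Cxcr3, Cxcr6, Ccl5 and Xcl1 were also set against Cd3e, a chain of the T cell receptor complex. Cd3e was at 4.21 ± 1.07 and 16.4 ± 5.69 CPM (SD, n = 4 each). Cells other than T cells also express some of these genes, so the ratios are not levels per T cell. The log2 ratio differed by 0.80 for Cxcr3 (exact permutation p = 0.0571), 0.48 for Cxcr6 (p = 0.114), 0.21 for Ccl5 (p = 0.400) and -0.03 for Xcl1 (p = 0.943). Tumors of the groups overlapped in each case. Xcl1 to its receptor gene Xcr1 differed by 0.51 (exact permutation p = 0.314). None of the 19 ratios passed after adjustment, for which 11 would have to reach the smallest exact p, and 6 did.

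For each of the 8, the genes of most similar pattern over the 8 tumors were found by the root mean square difference of their log2 CPM after centring each gene on its own mean, among 12088 genes with at least 1 CPM. This measure includes the group difference. Nearest to Cxcl9 were Casp1, the inflammasome protease (0.08), Gbp4, a guanylate-binding protein (0.14), and Clec4e, a myeloid lectin (0.15). Nearest to Cxcl10 were the interferon-inducible Ifi203 (0.06), the phospholipase Plcg2 (0.10) and Lcp1, an actin bundler of leukocytes (0.10). Those of Cxcl11 included Hcls1 (0.09) and the receptor kinase Acvrl1 (0.10).

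The distances were larger for Cxcr3 and Ccl5 than for the other genes. Cxcr3 was nearest to Rarres2 (0.23), which encodes chemerin, Klrd1 (0.29), a natural killer receptor chain, and Cd28 (0.29), a T cell costimulator. Cxcr6 was nearest to Ms4a4b (0.11), Cd3d (0.18), of the T cell receptor complex, and Xlr4b (0.21). Cxcl16 lay instead with C1qb (0.08), a complement chain of macrophages, Ctsh (0.08), a lysosomal protease, and B2m (0.09), the light chain of MHC class I. Ccl5 had Ltb, Ms4a4d and Nr1h3 (0.24 each), and Xcl1 had Ifi208 (0.18), Gimap7 (0.18) and Ly6c2 (0.19).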

How the data were processed

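RNA-seq of 8 whole tumors was analysed from the deposited table, which holds raw counts and FPKM for each tumor, per the file headers. The authors' counts are whole numbers without normalization, and the authors' FPKM are scaled to gene length and library size. A log2 fold change and FDR that the authors obtained with DESeq2 stand beside them, per the file headers. Reads were processed on GRCm38, according to the submitters' processing notes. Aligner, counter, strand setting and annotation: not given in the sources used here. Coordinates are from GENCODE release M21 of GRCm38 and promoter sequences from RefSeq, GRCm38.p6.

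Tumors were grouped by their titles. Genes were filtered with filterByExpr, scaled by TMM and tested in edgeR (version 4.0.16, R 4.3.3) by its robust quasi-likelihood test, two-sided. The p-values of all 14907 genes were adjusted together (Benjamini-Hochberg), and 0.05 was the threshold. Of symbols with several identifiers (21), the one with the highest total was used. CPM are counts per 1000000 after TMM scaling. Ratios between genes were taken on log2 CPM with a prior count of 2 and compared by a two-sided exact permutation test over tumors. Alternatives were DESeq2 (version 1.42.0), limma voom and limma on log2(FPKM + 0.1) (version 3.58.1), other size factors and filters, no robust estimation, a replicate block, Ptprc (log2 CPM) as a covariate, other thresholds, and leaving out each tumor. Replicate tumors differed beyond sampling noise, with a chi-square of at least 16.2 for each degree of freedom.

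Counts for shXBP1 against shNT were also simulated (14730 genes, 66 of them changed at each fold). There the test recovered 45.5% of genes changed 1.5-fold, 77.3% changed 2-fold and 95.5% changed 4-fold. Of the calls, 7.69% fell on unchanged genes. A far smaller share was changed there than the 30.0% called in the data, so these rates may not hold for the data. The 8 genes and all gene lists were chosen with earlier results of these data known. Promoters were planned with 50 bases after the start, which were left out because they can hold untranslated sequence. The genes named are these 8, receptors and proteases that act on their products, interferon inputs (up to 4 of each list by smallest p plus Xcr1, Ifng, Dpp4, Adam10 and Adam17), Ptprc, Cd3e, Xbp1, genes next to the Cxcl9 locus, and the 3 genes nearest in pattern to each of the 8. Zmynd15, Fyco1, Mmp9, Ackr2, Ackr3, Klrk1, Eomes, Jak1, Jak2, Nfkb1, Rela and genes named as below the filter were added after their values were seen. List symbols with no row (Trbc1, Trbc2, Adrbk1 and Adrbk2) were left out. A few genes that these rules name are not reported here.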

Additional observations from a re-analysis of the deposited data

Results flagged for a closer look

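Among the 8 genes, their partners, the interferon inputs, Ptprc, Cd3e, Xbp1 and the ratios, 112 groups of 4 tumors were examined for 1 tumor lying far from the other 3, measured by its gap relative to the range of the group. Of these, 8 (7.14%) held such a tumor, where chance gives about 5%, and none was a value of the 8 chemokine and receptor genes themselves. shXBP1 tumor 4 was low for Cd3e (7.85 CPM, others 19.0 to 19.4), Dpp4 (1.5 CPM, others 4.27 to 4.68), Adam10 (143 CPM, others 167 to 169) and Tnf (8.57 CPM, others 16.9 to 17.8). shNT tumor 2 was low for Cd3e (2.62 CPM, others 4.55 to 4.89), Adam17 (75.3 CPM, others 86.1 to 87.4) and Socs1 (24.6 CPM, others 39.9 to 41.8). shXBP1 tumor 2 was high for Ifngr2 (89.6 CPM, others 80.8 to 82.0).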

How the results depend on the processing

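All 8 genes were called higher under 17 of the 20 alternatives tried. The filter of 10 CPM in 4 tumors left 6 of the 8 to test, and those 6 were called. With Ptprc (log2 CPM) as a covariate 0 of the 8 were called, and 134 genes were higher and 106 lower in all. Its log2 fold changes were -0.22 for Cxcl9, 0.10 for Cxcl10, -0.19 for Cxcl11, 0.83 for Cxcr3, -0.35 for Cxcl16, -0.37 for Cxcr6, 0.21 for Ccl5 and 0.28 for Xcl1. The labels do not say whether the tumor numbers pair the tumors. The correlation of same-numbered deviations was -0.141 to -0.025, and no shNT tumor correlated best with the shXBP1 tumor of its own number. With 4 tumors per group these values cannot exclude a pairing. With the replicate block 6 of the 8 were called, Cxcr6 (2.37, adjusted p = 0.0861) and Ccl5 (2.11, adjusted p = 0.0532) were not, where leaving out single tumors gave them at most 0.0280 and 0.0199, and 1304 genes were lower. At a threshold of 0.01, 1644 genes were higher and 879 lower. Leaving out single tumors gave 2058 to 2904 genes higher and 1303 to 2401 lower, with the 1303 found without shNT tumor 3, and 8 of the 8 genes each time. Under other prior counts and on FPKM 0 ratios were called, which says little, because 11 of the 19 would have to reach the smallest exact p. Without 1 tumor they cannot pass, since 3 against 4 tumors give no p below 0.0571. Of the 24 genes nearest in pattern, 20 were the same with a prior count of 5. Cxcr3 had only 9 to 31 counts per shNT tumor, which limits its precision there.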
